A study of Oryzias latipes with 12 samples.

Results

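Knockout and wild-type medaka kept under short days were compared across all genes, with 3 libraries on each side. These 6 libraries were chosen by the genotype and treatment given in their sample labels and are 6 of the 12 in the series. The pd1 knockout group holds replicates 1, 3 and 4, from fish with a knockout of the gene that the series calls phod1 or pd1. The wild-type group holds replicates 1, 2 and 3. Both groups were kept under short days and were taken at 12:00, before any move to long days. The tissue of every sample was brain, holding the ventral telencephalon, the hypothalamus and the pituitary, of the fish Oryzias latipes. The other 6 libraries are 3 knockout and 3 wild-type samples taken 12 days after a move to long days, and they serve below as a second set of knockout and wild-type samples. The sources used here give no age, sex, knockout allele or number of knockout lines.

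Medaka breeds when days are long, and short days hold its reproductive axis low. In vertebrates the hypothalamus drives the pituitary gonadotropes through gonadotropin-releasing hormone, and the gonadotropes release follicle-stimulating and luteinizing hormone. Thyrotropin and the deiodinases, which activate or degrade thyroid hormone, carry day-length information to this axis in several vertebrates.

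Levels are in TPM, a transcript abundance scaled for gene length and library size, which the authors deposited for 26663 genes. The depth of sequencing is unknown, since TPM does not retain how many reads were counted. A gene was tested if it reached 1 TPM in at least 3 of the 12 libraries, which 18218 genes did. Of the tested genes 9446 have a proper symbol, and the rest carry a LOC number. No check of the knockout itself was possible, because neither phod1 nor pd1 is a symbol or synonym in the gene table used. Whether the libraries represent separate fish is not stated in the labels, and p-values therefore measure no more than the spread between these samples. Short-day wild-type replicate 3 lay farthest out of the 6 short-day libraries on 1 axis of variation. On the first principal component of the 6 libraries, which held 33.4% of the variance, its score was -40.1. The other wild-type libraries scored -15.6 and -14.1 there, and the knockout libraries scored 18.1, 26.5 and 25.1. On the second component, with 19.6% of the variance, wild-type replicate 1 was farthest out at 28.5. Wild-type replicate 3 (-22.4) lay beside knockout replicate 3 (-21.9) there. Across genes, Pearson correlations of log2(TPM + 1) were 0.972 to 0.976 between knockout libraries, 0.972 to 0.977 between wild-type libraries and 0.960 to 0.972 between the genotypes. In these bulk samples, fewer cells of a type and less RNA per cell cannot be told apart.

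The comparison called 121 genes, 0.664% of those tested, at an adjusted p under 0.05 (limma with Benjamini-Hochberg adjustment over all tested genes, two-sided). In the knockout 53 were higher, 0.291% of tested genes, and 68 were lower, 0.373%. The 6 smallest p belonged to large differences, in which the knockout held several times more or several times less transcript than wild type. They were the rises of LOC111946846, c20h8orf59, LOC111946870, sowahc and LOC101167112 and the fall of LOC101166700. Among called genes with a symbol, arf4 fell most and c20h8orf59 rose most. The median difference was 1.17 on the log2(TPM + 1) scale for the genes called higher and -0.76 for those called lower, and 54 of the 121 differed by at least 1. Over all tested genes the median was -0.04, and 2398 genes, 13.2%, had an unadjusted p under 0.05. All 121 had every knockout library above, or every one below, all wild-type libraries, as did 19.5% of tested genes. Only 48 of the 121 have a symbol other than a LOC number, 15 of them higher and 33 lower, and 106 of the 121 are annotated as protein coding.

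Scaling the libraries to 1 another changes the balance of directions. With median-ratio scaling 123 genes were called, 69 higher and 54 lower in the knockout, which makes 56.1% higher, against 43.8% higher without it. The median of all tested genes was then -0.00 and not -0.04.

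The gene c20h8orf59, named after a human open reading frame, held 36.0, 45.2 and 42.7 TPM in the knockout libraries, against 5.61, 5.20 and 5.19 TPM in the wild-type libraries. The knockout mean was 7.74 times the wild-type mean, and the groups lay far apart. The difference was 2.73 on the log2(TPM + 1) scale (SE 0.21, limma adjusted p = 0.000284), and 2.72 without wild-type replicate 3 (limma adjusted p = 0.00215).

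The gene sowahc, which encodes a protein with ankyrin repeats, held 140.5, 138 and 84.3 TPM in the knockout libraries and 25.7, 24.6 and 26.5 TPM in the wild-type libraries. Knockout replicate 4 was the lowest of its group and still well above every wild-type value. The difference was 2.16 (SE 0.21, limma adjusted p = 0.00121), and 2.18 without wild-type replicate 3 (limma adjusted p = 0.00806).

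The gene arf4, which encodes a small GTPase of the ADP-ribosylation factor family that acts in Golgi and ciliary membrane traffic, held 5.14, 5.63 and 7.05 TPM in the knockout libraries. In the wild-type libraries it held 55.4, 30.2 and 76.3 TPM, a wide spread that did not reach down to the knockout. The wild-type mean was 9.09 times the knockout mean. The difference was -2.90 (SE 0.36, limma adjusted p = 0.00735), and -2.61 without wild-type replicate 3, the library with the highest value (limma adjusted p = 0.0314). Of the 32 tested small GTPase genes of the Rab and Arf families, arf4 was the only one called, and the list's median difference was -0.06. Over all tested genes 0.664% were called and the median was -0.04.

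LOC111946846, a protein-coding gene with no symbol, held 195, 207 and 151 TPM in the knockout libraries and is listed at 0 in each wild-type library. Under long days it held 359.6, 245 and 338 TPM in the knockout libraries, and was again listed at 0 in each wild-type library. It had the smallest adjusted p of all genes (limma adjusted p = 1.39e-10, and 4.64e-09 without wild-type replicate 3). It passed the filter only through the knockout libraries, where it is high, and wild-type values of 0 add no spread to that p. Leaving out wild-type replicate 3, itself at 0, left the difference at 7.52 and is no check. Other called genes listed at 0 in every short-day wild-type library were LOC101158905 (21.99, 39.0 and 31.9 TPM in the knockout libraries) and LOC100125446 (6.47, 4.58 and 4.19 TPM). Both likewise passed the filter only through knockout libraries. The non-coding LOC111948316 was listed at 0 in all 3 knockout libraries, against 1.72, 6.64 and 6.59 TPM in the wild-type libraries. Of these 3, none was called without wild-type replicate 3 (limma adjusted p = 0.152, 0.0901 and 0.0668 in the order named).

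**Figure D1:**
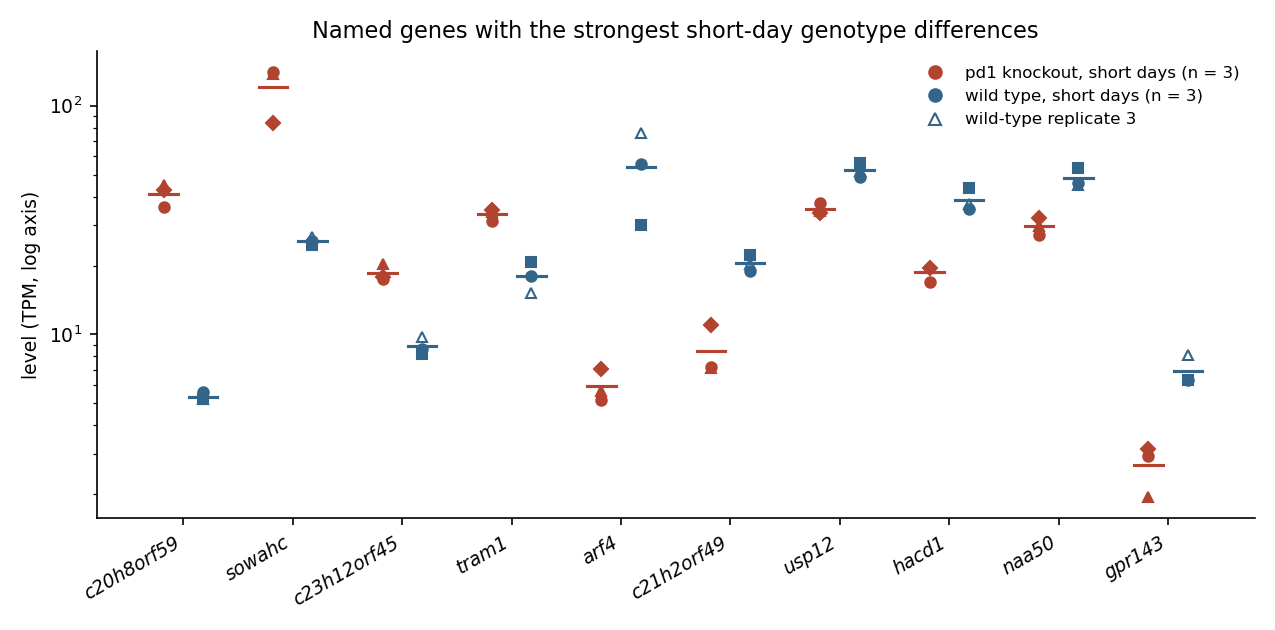
Level in each library (TPM, log axis) of 10 genes with a symbol and small p under short days, pd1 knockout in red to the left of wild type in blue, with bars at the group means (n = 3 each) and symbol shapes by replicate number. In all 10 genes the groups do not overlap, and c20h8orf59, sowahc and arf4 are the most widely separated.

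Further called genes with a symbol are grouped here by their known roles, after their values were seen and with no test of the grouping. The genes were picked mainly by size of difference, so all 15 called rises with a symbol are named but only part of the 33 falls. Falls left out include those of smad7, faim and sidt2. Several of the grouped genes act in the handling of proteins during or after synthesis. The gene tram1, which encodes a membrane protein beside the channel that carries new chains into the endoplasmic reticulum, held 31.3, 34.5 and 35.1 TPM in the knockout libraries against 18.0, 20.6 and 15.1 TPM in the wild-type libraries (0.88, SE 0.11, limma adjusted p = 0.00674). The deubiquitinase gene usp12 held 37.5, 34.7 and 34.0 TPM in the knockout libraries against 48.9, 56.0 and 51.7 TPM in the wild-type libraries (-0.55, SE 0.07, limma adjusted p = 0.00674). Both differences are small next to those of arf4 and sowahc, and in both the libraries of each genotype lay close together. The N-terminal acetyltransferase gene naa50 held 27.2, 29.6 and 32.2 TPM in the knockout libraries and 46.1, 53.2 and 45.1 TPM in the wild-type libraries (-0.68, limma adjusted p = 0.0121, and 0.0534 without wild-type replicate 2). The gene cct5, a subunit of the cytosolic chaperonin, held 263, 276 and 267 TPM in the knockout libraries and 214, 181 and 203 TPM in the wild-type libraries (0.43, limma adjusted p = 0.0348). The ribosome assembly factor gene rpf2 held 24.7, 23.2 and 23.7 TPM in the knockout libraries and 16.3, 15.98 and 18.1 TPM in the wild-type libraries (0.49, limma adjusted p = 0.0386). For cct5 and rpf2 the groups did not overlap, but the calls were lost without wild-type replicate 3 (limma adjusted p = 0.102 and 0.0711). With each of the 6 libraries left out in turn, tram1 and usp12 kept their calls, naa50 lost its call only as stated, cct5 kept its call only without wild-type replicate 1, and rpf2 lost its call each time.

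Genes of lipid and fuel metabolism changed in both directions. The gene hacd1, a dehydratase in the elongation of very long chain fatty acids, held 17.0, 19.5 and 19.5 TPM in the knockout libraries and 35.4, 43.7 and 37.0 TPM in the wild-type libraries (-1.01, SE 0.14, limma adjusted p = 0.0117, and 0.0515 without wild-type replicate 2). The phosphatidate phosphatase gene lpin2 held 3.29, 3.67 and 3.59 TPM in the knockout libraries and 9.05, 9.07 and 8.60 TPM in the wild-type libraries (-1.13, limma adjusted p = 0.0142, and 0.0587 without wild-type replicate 3). For both genes the groups lay well apart, but lpin2 also missed the threshold without wild-type replicate 1 or 2 (limma adjusted p = 0.0538 and 0.0643). The gene pltp, for a phospholipid transfer protein of lipoproteins, was higher at 59.8 to 70.6 TPM in the knockout against 44.3 to 47.5 TPM in wild type (0.48, limma adjusted p = 0.0386). The gene acbd5, for a peroxisomal protein that binds acyl-CoA, was higher at 49.3 to 53.3 TPM in the knockout against 39.4 to 40.5 TPM in wild type (0.35, limma adjusted p = 0.0489). Pyruvate use in mitochondria was represented by a pair of rises. The gene mpc2, a subunit of the mitochondrial pyruvate carrier, was at 113 to 146 TPM in the knockout and 83.4 to 101 TPM in wild type (0.55, limma adjusted p = 0.0389), and pdk3, a kinase that inhibits pyruvate dehydrogenase, was at 61.0 to 63.2 TPM in the knockout and 42.4 to 44.8 TPM in wild type (0.52, limma adjusted p = 0.0433). The gene ndufv3, an accessory subunit of respiratory complex I, was lower at 6.21 to 10.6 TPM in the knockout against 14.6 to 15.2 TPM in wild type (-0.89, limma adjusted p = 0.0499). The xylulose reductase gene dcxr was higher at 24.3 to 27.7 TPM in the knockout against 17.7 to 19.4 TPM in wild type (0.45, limma adjusted p = 0.0471), and the lysosomal sulfatase gene arsb was lower at 4.65 to 5.54 TPM in the knockout against 8.78 to 10.2 TPM in wild type (-0.75, limma adjusted p = 0.0389). Without wild-type replicate 3 the limma adjusted p of these 7 genes, pltp to arsb, ran from 0.129 to 0.186. With the other libraries left out in turn, mpc2 kept its call without wild-type replicate 1 or knockout replicate 4, ndufv3 kept it without knockout replicate 1, and the other 5 kept it in no case.

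Genes of receptors, signalling and neurons formed another group of calls. The gene gpr143, a receptor of melanosomes that also binds L-DOPA, held 2.94, 1.94 and 3.14 TPM in the knockout libraries and 6.30, 6.29 and 8.16 TPM in the wild-type libraries (-1.12, SE 0.16, limma adjusted p = 0.0121, and 0.0518 without wild-type replicate 3). The gene ramp1, a partner protein that forms the receptor for calcitonin gene-related peptide, held 22.8, 29.8 and 29.0 TPM in the knockout libraries and 15.1, 13.5 and 12.3 TPM in the wild-type libraries (0.94, limma adjusted p = 0.0121, and 0.0570 without wild-type replicate 3). The synapse organiser gene cbln2 held 82.2, 84.6 and 81.8 TPM in the knockout libraries and 56.9, 47.5 and 56.2 TPM in the wild-type libraries (0.62, limma adjusted p = 0.0168, and 0.0523 without wild-type replicate 3). These 3 calls missed the threshold narrowly once that library was removed. Without wild-type replicate 2 the limma adjusted p was 0.0532 for ramp1 and 0.0659 for cbln2, and without knockout replicate 3 it was 0.0642 for cbln2. The kinase gene prkx was lower at 11.7 to 14.1 TPM in the knockout against 24.0 to 29.2 TPM in wild type (-1.05, limma adjusted p = 0.0140, and 0.0536 to 0.0658 without wild-type replicate 1 or 3 or knockout replicate 3). The Ras-family gene mras was higher at 34.9 to 37.5 TPM in the knockout against 25.8 to 29.2 TPM in wild type (0.37, limma adjusted p = 0.0442), and cdk2ap2, for a protein that binds a cyclin-dependent kinase, was higher at 15.6 to 20.3 TPM in the knockout against 10.2 to 12.1 TPM in wild type (0.69, limma adjusted p = 0.0433). The gene cabp5, for a calcium-binding protein of the calmodulin type, was lower at 26.6, 15.4 and 17.9 TPM in the knockout libraries against 44.8, 45.2 and 61.4 TPM in the wild-type libraries (-1.31, limma adjusted p = 0.0389). Without wild-type replicate 3 the limma adjusted p was 0.13 for mras, 0.108 for cdk2ap2 and 0.161 for cabp5. The gene mras lost its call without each library in turn, while cdk2ap2 and cabp5 kept theirs only without knockout replicate 1.

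The hypocretin gene hcrt encodes the precursor of the orexin peptides, which hypothalamic neurons release to maintain wakefulness. It held 7.62, 6.63 and 8.29 TPM in the knockout libraries and 10.2, 15.1 and 15.96 TPM in the wild-type libraries (-0.78, SE 0.15, limma adjusted p = 0.0492). It was the only one of 20 tested neuropeptide genes called, where 0.664% of all tested genes were called. Its groups did not overlap, as in 19.5% of all tested genes. The hcrt call was lost without wild-type replicate 3 (-0.66, limma adjusted p = 0.189) and without each other library but wild-type replicate 1. The intraflagellar transport gene ift80, of cilium assembly, was the only one of 24 tested cilium genes called, at 14.4, 14.2 and 12.8 TPM in the knockout libraries and 19.5, 20.2 and 21.3 TPM in the wild-type libraries (-0.52, limma adjusted p = 0.0190, and 0.0931 without wild-type replicate 3). The ift80 call was lost without wild-type replicate 2 or knockout replicate 4 as well (limma adjusted p = 0.0745 and 0.0547). Further falls were those of the RNA methyltransferase gene nsun6 (4.63 to 4.84 TPM in the knockout and 7.57 to 8.46 TPM in wild type), the TatD nuclease-domain gene tatdn2 (0.78 to 1.18 TPM in the knockout and 3.24 to 5.31 TPM in wild type), the C-type lectin gene cd302 (53.2 to 90.2 TPM in the knockout and 108 to 119.6 TPM in wild type) and armh1 (4.72 to 8.09 TPM in the knockout and 12.0 to 15.7 TPM in wild type). For these 4 genes limma adjusted p ran from 0.0311 to 0.0420, and without wild-type replicate 3 from 0.138 to 0.172. Of the 4, cd302 kept its call only without knockout replicate 1 and armh1 only without knockout replicate 4. The open reading frame genes c23h12orf45 and c21h2orf49 kept their calls without each library in turn. The gene c23h12orf45 held 17.4, 20.3 and 17.9 TPM in the knockout libraries and 8.63, 8.17 and 9.77 TPM in the wild-type libraries (0.99, limma adjusted p = 0.00419). The gene c21h2orf49 held 7.18, 7.09 and 11.0 TPM in the knockout libraries and 18.9, 22.3 and 20.3 TPM in the wild-type libraries (-1.21, limma adjusted p = 0.00674).

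Without wild-type replicate 3, 27 genes were called, 0.148% of those tested, 17 of them higher (0.0933%) and 10 lower (0.0549%). Of the 27, 24 were among the 121, 15 higher and 9 lower. The rest of the 121 missed the threshold. All 121 kept their direction and had an unadjusted p under 0.05 without that library. The direction could not change, since the groups of all 121 do not overlap. The remaining libraries had also served to choose the 121, so neither count is a separate check. The median size of their differences was 0.91 on the log2 scale with all 6 libraries and 0.89 without wild-type replicate 3, and 71 of the 121 were smaller without it. The count also fell when other libraries were removed. It was 92 without knockout replicate 1, 61 without knockout replicate 3, 95 without knockout replicate 4, 56 without wild-type replicate 1 and 33 without wild-type replicate 2. In every one of the 6 removals 20 genes stayed called, 13 higher and 7 lower, and 30 of the 121 were called in none. Genes with a symbol among the 20 were c20h8orf59, sowahc, c23h12orf45 and tram1, all higher in the knockout, and arf4, usp12, c21h2orf49 and prkra, all lower. The gene prkra, for an activator of the double-stranded RNA-dependent kinase, is named here after its values were seen. It held 31.4, 27.8 and 28.2 TPM in the knockout libraries and 47.5, 43.3 and 42.6 TPM in the wild-type libraries (-0.59, limma adjusted p = 0.00632, and 0.0227 without wild-type replicate 3).

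**Figure D2:**
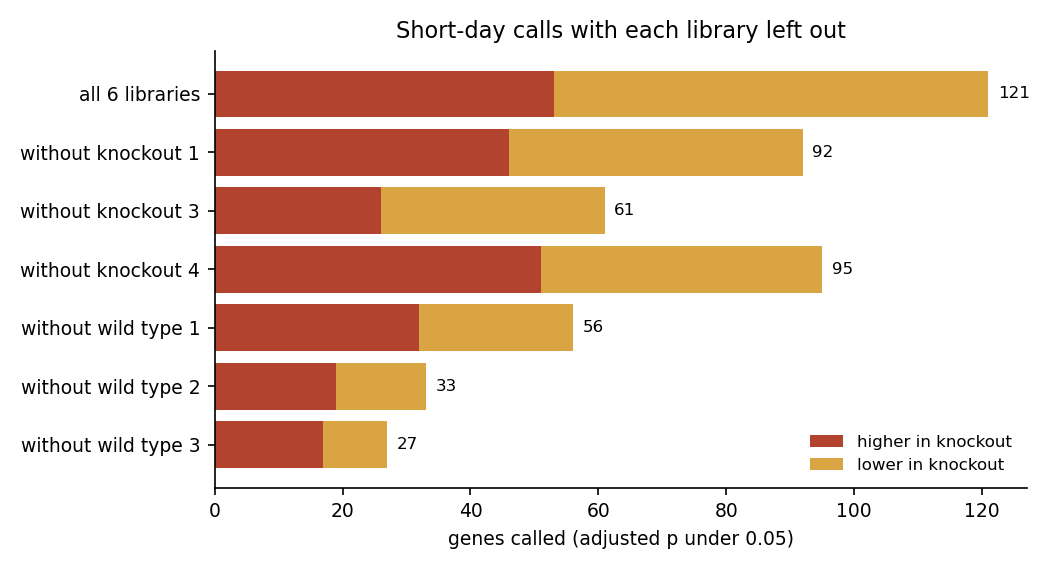
Number of genes called between pd1 knockout and wild type under short days (x axis), with all 6 libraries and with each library left out in turn (rows), split into genes higher in the knockout (red) and lower (yellow). The count is 121 with all libraries and between 27 and 95 with a library left out, lowest without wild-type replicate 3.

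The long-day libraries share no sample with the short-day comparison, although both use the same estimate of spread. Under long days 117 genes were called, 0.642% of those tested, 86 higher in the knockout (0.472%) and 31 lower (0.170%). Of the 121 short-day calls 26 were also called under long days, all 26 in the same direction, 16 higher and 10 lower. They make up 21.5% of the short-day calls and 22.2% of the long-day calls, and 15 of the 26 were called under short days without wild-type replicate 3 too. The same direction was seen for 105 of the 121 genes under long days, against 54.7% of all tested genes. An unadjusted p under 0.05 in that direction was reached by 63 of the 121, where 11.3% of all tested genes reached it in either direction. Libraries of the 2 genotypes did not overlap, in that direction, for 65 of the 121, whereas 15.8% of all tested genes did not overlap under long days in either direction. The differences were mostly smaller than under short days. Their median size was 0.32 under long days and 0.91 under short days, and 110 of the 121 were smaller. The 121 were chosen for their short-day difference, so this comparison of sizes is a description only.

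Among the 26 genes called under both day lengths, 9 have a symbol. The gene c20h8orf59 held 25.5, 38.3 and 22.7 TPM in the long-day knockout libraries against 6.81, 7.16 and 4.00 TPM in the long-day wild-type libraries (2.09, limma adjusted p = 0.00160). The gene sowahc held 80.1, 85.7 and 134 TPM in the knockout libraries against 25.4, 28.8 and 25.2 TPM in the wild-type libraries (1.84, limma adjusted p = 0.00333). The gene arf4 held 9.69, 12.8 and 6.55 TPM in the knockout libraries against 34.9, 87.8 and 54.6 TPM in the wild-type libraries (-2.44, limma adjusted p = 0.0126). In these 3 genes the genotypes did not overlap under long days, and each difference was smaller there than under short days (2.73 for c20h8orf59, 2.16 for sowahc and -2.90 for arf4). None of the 3 passed the interaction test, which asks whether the genotype difference itself differed between day lengths (limma adjusted p = 0.632 for c20h8orf59, 0.800 for sowahc and 0.836 for arf4). Under long days usp12 differed by -0.60, naa50 by -0.70, hacd1 by -0.78, tram1 by 0.58, pltp by 0.48 and cdk2ap2 by 1.03, with limma adjusted p from 0.00333 to 0.0411. Of the genes without a symbol, the non-coding LOC101167112 held 24.2, 29.6 and 32.3 TPM in the short-day knockout libraries against 3.20, 1.29 and 0 TPM in the wild-type libraries, and 74.0, 68.3 and 66.4 TPM in the long-day knockout libraries against 2.56, 1.91 and 2.17 TPM in the wild-type libraries. The protein-coding LOC101166700 was lower, at 0, 0.38 and 0.17 TPM in the short-day knockout libraries against 7.30, 3.92 and 5.24 TPM in the wild-type libraries, and at 0.06, 0.22 and 0.14 TPM in the long-day knockout libraries against 3.21, 2.23 and 2.12 TPM in the long-day wild-type libraries. For both genes the genotypes did not overlap under either day length. LOC101166700 passed the filter only through wild-type libraries, where it is high.

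Other short-day calls were small or absent under long days. The gene c23h12orf45 stood at 7.83, 9.34 and 8.52 TPM in the long-day knockout libraries and 8.97, 7.52 and 8.12 TPM in the wild-type libraries (0.06, limma adjusted p = 0.906). The gene gpr143 stood at 7.34, 7.70 and 6.30 TPM in the long-day knockout libraries and 7.22, 7.58 and 7.20 TPM in the wild-type libraries (-0.04, limma adjusted p = 0.955). The genotypes overlapped for both genes there. Whether the genotype difference itself differed between day lengths was tested as an interaction. It was called for 1 of the tested genes, LOC110015663, which is 0.00549%, and for 0 of the 121, whose smallest limma adjusted p was 0.113. LOC110015663 passed the filter only through its long-day knockout libraries. Of the 121, 68 had an unadjusted p under 0.05 in that test, against 1444 of the 18218 tested genes. The 121 were chosen for their short-day difference, which is part of that test. A higher share among them is therefore built into the choice, and the counts are a description only. The short-day calls are therefore not shown to be particular to short days.

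**Figure D3:**
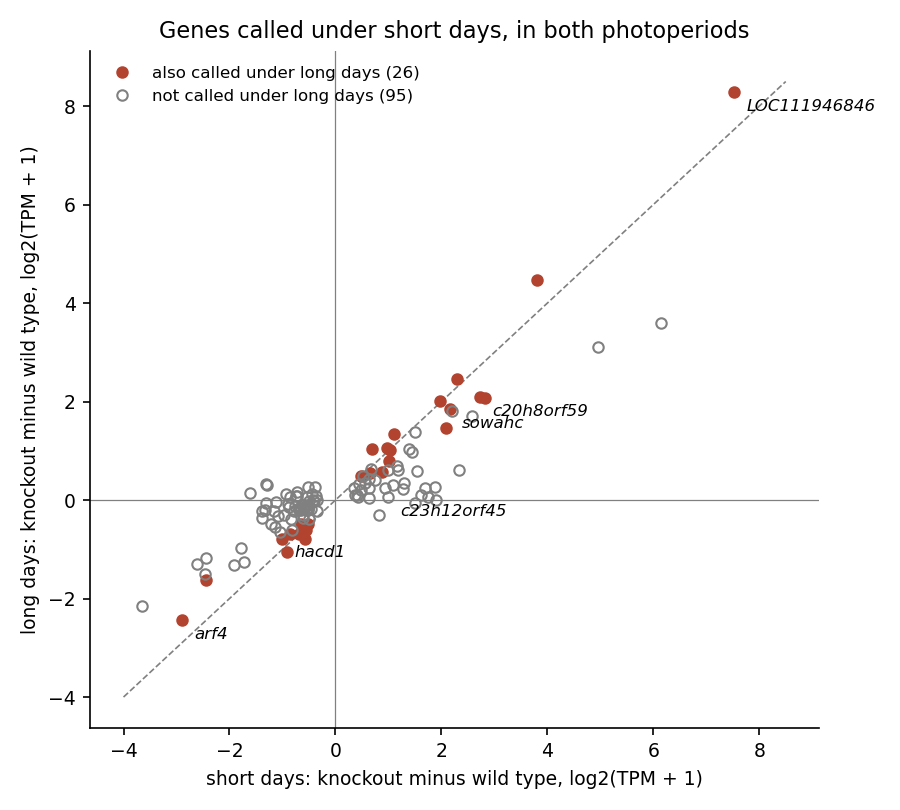
Difference between pd1 knockout and wild type in log2(TPM + 1) under short days (x axis) and under long days (y axis) for the 121 genes called under short days, with filled points for the 26 also called under long days and a dashed line of equal differences. Of the 121 genes, 105 lie in the quadrants of equal direction, and c23h12orf45 lies near 0 on the long-day axis.

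Genes of the reproductive axis were read from a list of 12 tested genes, of which limma called 0 and 3 had an unadjusted p under 0.05. Of all tested genes 0.664% were called and 13.2% had such an unadjusted p. In 4 of the 12 the groups did not overlap, 2 higher and 2 lower in the knockout, against 19.5% of all tested genes. The largest fall in the list was that of esr2 (-0.50). The FSH β subunit gene fshb held 206, 163 and 183 TPM in the knockout libraries and 122, 115 and 31.4 TPM in the wild-type libraries. The groups did not overlap, and wild-type replicate 3 was far below its group. The difference was 1.25 (limma adjusted p = 0.197), and 0.62 without wild-type replicate 3 (limma adjusted p = 0.0517). Under long days fshb lay the other way, at 602, 635 and 625 TPM in the knockout libraries and 983, 897 and 1083 TPM in the wild-type libraries, without overlap (-0.66, limma adjusted p = 0.567). The interaction test did not pass for fshb (limma adjusted p = 0.413). The gene lhb, for the β subunit of luteinizing hormone, held 85.9, 82.1 and 62.5 TPM in the knockout libraries and 35.8, 56.3 and 48.0 TPM in the wild-type libraries, again without overlap (0.72, limma adjusted p = 0.275, and 0.459 without wild-type replicate 3). The shared α subunit gene cga overlapped, at 387, 202 and 266 TPM in the knockout libraries and 269.8, 440.2 and 353 TPM in the wild-type libraries. It differed by -0.33 (limma adjusted p = 0.636), and by -0.32 without wild-type replicate 3 (limma adjusted p = 0.802). The releasing hormone genes gnrh1 and gnrh3 differed by 0.33 and 0.07, brain aromatase cyp19b by 0.21 and the progesterone receptor gene pgr by 0.35. Their groups overlapped, with limma adjusted p from 0.454 to 0.956. Without wild-type replicate 3 the differences were 0.12, -0.25, 0.26 and 0.47 in the same order (limma adjusted p from 0.548 to 0.851). That of gnrh3 thus changed direction. The pituitary prohormone gene pomc ran over a wide range, at 8537, 1602 and 2425 TPM in the knockout libraries and 4534, 5987 and 3048 TPM in the wild-type libraries. It differed by -0.44 (limma adjusted p = 0.794), and by -0.70 without wild-type replicate 3 (limma adjusted p = 0.792).

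Thyroid hormone and clock genes were not called either. In the thyroid list limma called 0 of 9 tested genes, and 2 had an unadjusted p under 0.05, against 13.2% of all tested genes. In the knockout 8 of the 9 were lower, with a median of -0.19, where 40.1% of all tested genes were higher. The inactivating deiodinase gene dio3 held 10.3, 11.2 and 9.36 TPM in the knockout libraries and 15.2, 13.4 and 13.4 TPM in the wild-type libraries, without overlap. It differed by -0.41 (limma adjusted p = 0.259), and by -0.44 without wild-type replicate 3 (limma adjusted p = 0.425). The activating deiodinase gene dio2 held 5.41, 1.64 and 8.39 TPM in the knockout libraries and 6.66, 6.73 and 2.89 TPM in the wild-type libraries. It differed by -0.18 (limma adjusted p = 0.891), and by -0.51 without wild-type replicate 3 (limma adjusted p = 0.747). Of 12 tested clock genes limma called 0, and 4 had an unadjusted p under 0.05, against the same 13.2%. The light-responsive clock gene per2 held 35.5, 28.2 and 33.3 TPM in the knockout libraries and 32.2, 32.4 and 32.3 TPM in the wild-type libraries (-0.00, limma adjusted p = 0.995). The coagulation factor gene f13a1 held 2.98, 0.17 and 1.52 TPM in the knockout libraries and 12.8, 5.15 and 3.37 TPM in the wild-type libraries. It differed by -1.66 (limma adjusted p = 0.129), and by -2.02 without wild-type replicate 3 (limma adjusted p = 0.152). Under long days f13a1 lay the other way, at 116, 152 and 108 TPM in the knockout libraries and 62.4, 56.5 and 64.4 TPM in the wild-type libraries (1.01, limma adjusted p = 0.411), and its interaction test did not pass (limma adjusted p = 0.298). The ferrochelatase gene fech, of haem synthesis, differed by -0.03 (limma adjusted p = 0.928).

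**Figure D4:**
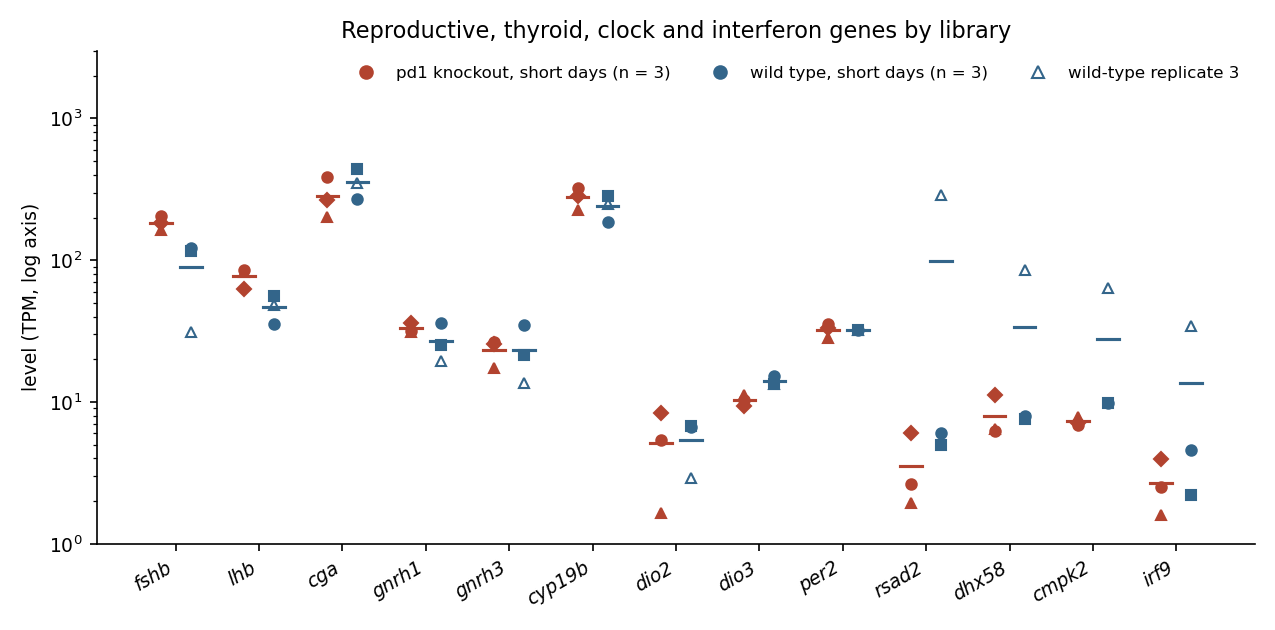
Level in each library (TPM, log axis) of reproductive, thyroid, clock and interferon genes, pd1 knockout in red to the left of wild type in blue, with bars at the group means (n = 3 each) and wild-type replicate 3 as an open triangle. The open triangles of rsad2, dhx58, cmpk2 and irf9 lie above every other library, that of fshb lies below every other library, and 0 of these genes were called.

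The interferon list shows how far 1 library can move a median. Its 9 tested genes were all lower in the knockout, with a median of -0.71. Limma called 0 of them, and 1 had an unadjusted p under 0.05, against 13.2% of all tested genes. The antiviral gene rsad2 held 2.64, 1.93 and 6.03 TPM in the knockout libraries and 6.05, 4.97 and 287 TPM in the wild-type libraries. Wild-type replicate 3 held dhx58, an RNA sensor, at 85.2 TPM, cmpk2, an interferon-induced nucleotide kinase, at 64.1 TPM and irf9, which relays interferon signals to the nucleus, at 34.3 TPM. In the other 5 short-day libraries dhx58 ran from 6.21 to 11.1 TPM, irf9 from 1.60 to 4.62 TPM and cmpk2 from 6.88 to 9.91 TPM. Without wild-type replicate 3 the list's median was -0.04, with 2 of the 9 higher in the knockout, and over all tested genes it was -0.03.

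Across 32 gene lists, 5 of the 686 tested members were called, 0.729%, close to the 0.664% of all tested genes. These were arf4, ift80, pdk3, hcrt and ndufv3. Members named below that are not called were picked after their values were seen. Lists differed more in the direction of their members than in calls. Of 66 ribosomal protein genes 61 were higher in the knockout, against 40.1% of all tested genes. Their median was 0.12, or 0.17 with median-ratio scaling, and limma called 0 (smallest limma adjusted p = 0.135, for rpl37). An unadjusted p under 0.05 was held by 7 of the 66, against 13.2% of all tested genes. In 47.0% of the 66 the groups did not overlap, all with the knockout higher. Among all tested genes this share was 6.3% with the knockout higher and 19.5% in either direction. The 66 genes were read in the same libraries and are not 66 separate observations. Their summed TPM was 116993 to 119475 in the knockout libraries and 106673, 115214 and 103868 in the wild-type libraries, so wild-type replicate 2 lay near the knockout. The spread of the list's median between libraries of a group was 0.055. Without wild-type replicate 3 the median was 0.09 with 57 of 66 higher. Under long days it was -0.05 with 14 of 66 higher, where 10743 of the 18218 tested genes were higher. The difference between day lengths was not tested for the list.

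Chaperones of the endoplasmic reticulum and stress-response genes, 31 in all, had 0 limma calls. An unadjusted p under 0.05 was held by 11 of the 31, against 13.2% of all tested genes. The groups were separated in 45.2% of the 31, 10 higher and 4 lower in the knockout, against 19.5% of all tested genes. Separated and higher were the chaperone genes hspa5 (274, 325 and 316 TPM in the knockout libraries and 236, 218 and 244 TPM in the wild-type libraries) and hsp90b1 (248, 281 and 257 TPM in the knockout libraries and 211, 182 and 190.4 TPM in the wild-type libraries), together with the disulfide isomerase genes pdia3, pdia4 and pdia6 and the transcription factor gene xbp1. Separated and lower were atf4, ddit3, chac1 and hsf2. Of all tested genes 6.3% were separated with the knockout higher and 13.2% with it lower. The 4 falls among the 31 are thus near the share of all tested genes. The transcription factor gene ddit3 held 24.8, 20.6 and 18.7 TPM in the knockout libraries and 33.4, 26.7 and 27.7 TPM in the wild-type libraries, and chac1, an enzyme that degrades glutathione, held 453, 426 and 555 TPM in the knockout libraries against 641, 677 and 690.4 TPM in the wild-type libraries. The gene chac1 came nearest to a call (-0.49, limma adjusted p = 0.0529), and under long days it was called (-0.57, limma adjusted p = 0.0322). Without wild-type replicate 3 its short-day difference was -0.47 (limma adjusted p = 0.189).

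Immediate early genes, which neurons switch on when active, stood higher in the knockout for 11 of 16 tested genes. Among all tested genes 40.1% stood higher in the knockout. Limma called 0 of the 16, while 8 had an unadjusted p under 0.05, a level that 13.2% of all tested genes reached. The median difference was 0.31. The gene ier2 held 42.9, 69.5 and 83.8 TPM in the knockout libraries and 18.8, 24.8 and 37.0 TPM in the wild-type libraries (1.25, limma adjusted p = 0.0800, and 0.0668 without wild-type replicate 3). The activity-dependent transcription factor gene npas4 held 60.7, 80.3 and 130.2 TPM in the knockout libraries and 37.0, 45.9 and 51.6 TPM in the wild-type libraries (0.94, limma adjusted p = 0.164). Both were separated by genotype, highest in knockout replicate 4. The list's median was 0.28 without wild-type replicate 3, 0.18 without knockout replicate 4, and 0.33 under long days, where 12 of 16 were higher. Over all tested genes the long-day median was 0.04, with 10743 of 18218 higher. Among neuropeptides, the isotocin precursor gene oxt held 204, 319.8 and 172 TPM in the knockout libraries and 530.5, 458 and 728 TPM in the wild-type libraries. The groups were separated, but the difference did not pass (-1.32, limma adjusted p = 0.165, and 0.409 without wild-type replicate 3), nor did that under long days (-1.25, limma adjusted p = 0.197).

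**Figure D5:**
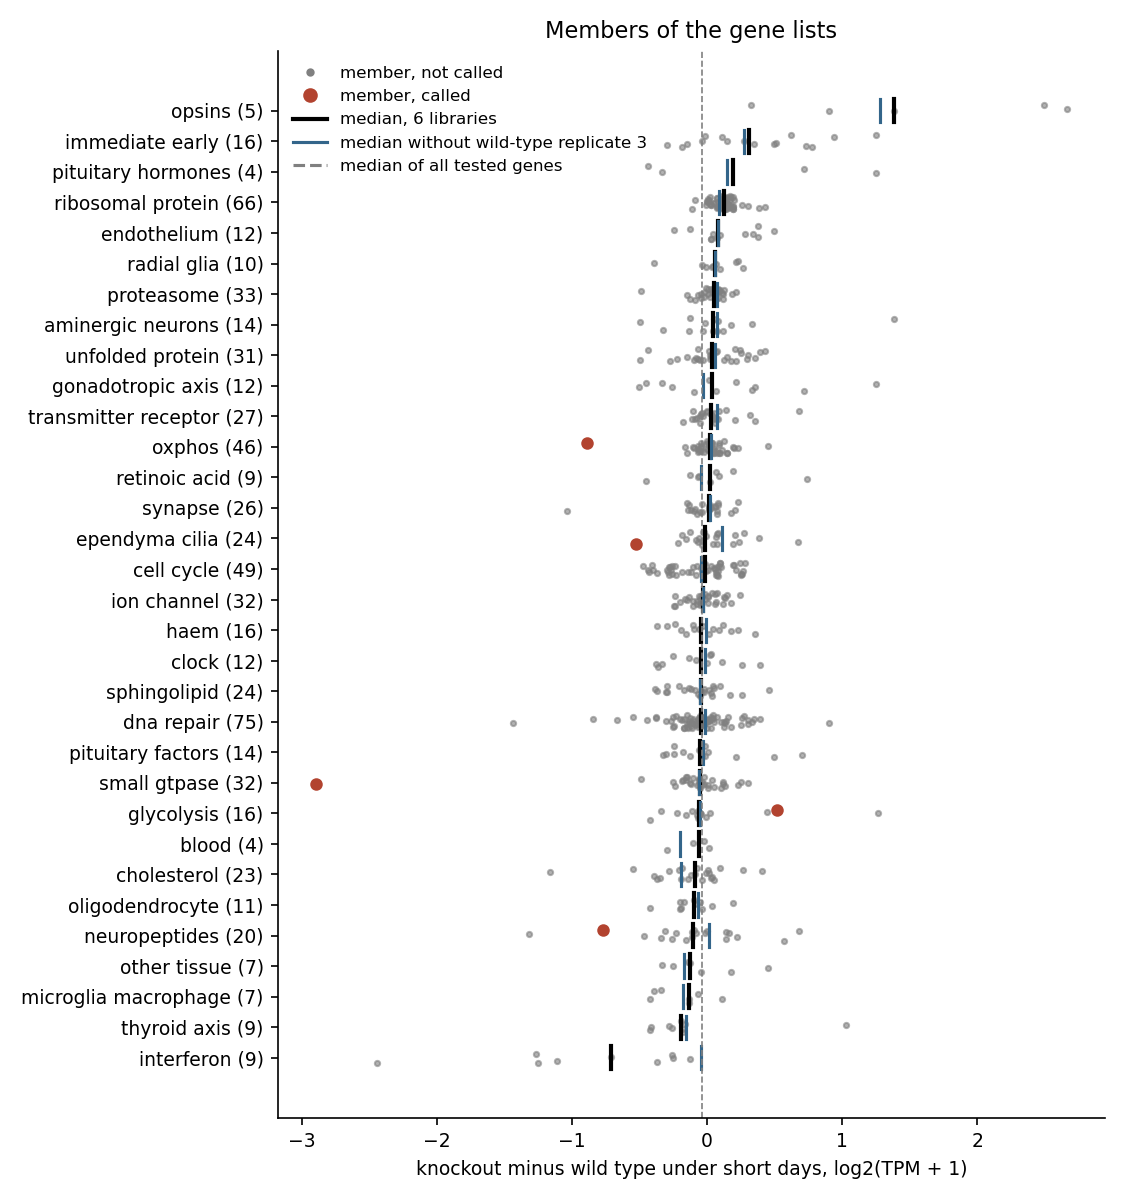
Difference between pd1 knockout and wild type under short days in log2(TPM + 1) (x axis) for each tested member of 32 gene lists (rows, with the number tested), with called members in red and medians as bars, in black with all 6 libraries and in blue without wild-type replicate 3. The 5 called members are single points away from their lists' medians, and the median of the interferon list lies at -0.71 with and -0.04 without wild-type replicate 3.

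Markers of the dissected regions were present in both groups. Summed TPM of the telencephalon markers ran from 279 to 310 in the knockout libraries and from 293 to 336 in the wild-type libraries, and that of the radial glia markers from 2874 to 3276 in the knockout and from 2844 to 3056 in wild type. Summed pituitary markers, mostly pomc, ran from 2072 to 9236 TPM in the knockout libraries and from 3497 to 6620 TPM in the wild-type libraries. Hypothalamic neuron markers summed to 372 to 508 TPM in the knockout libraries and 672 to 963 TPM in the wild-type libraries. These ranges did not overlap. The most abundant of the 5 matched, oxt, ran from 172 to 320 TPM in the knockout and 458 to 728 TPM in wild type. By gene, the genotypes overlapped for crh and gnrh3 and did not for oxt, trh and hcrt, and only hcrt was called. Of all tested genes 19.5% did not overlap in either direction, and 13.2% did not overlap with the knockout lower. Oligodendrocyte markers summed to 179 to 219 TPM in the knockout and 173 to 231 TPM in wild type, and microglial markers to 17.2 to 22.7 TPM in the knockout and 20.9 to 29.1 TPM in wild type. Muscle markers summed to at most 1.29 TPM in the knockout libraries and 1.73 TPM in the wild-type libraries. The hypothalamic sum holds hcrt and the pituitary sum holds fshb and lhb, so the sums are no separate measure for these genes. The part of tissue share in the differences of hcrt, fshb and lhb was not tested.

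Genes of the pineal organ and photoreceptors set knockout replicate 3 apart. The melatonin-synthesis enzyme gene aanat2 held 0, 24.2 and 3.69 TPM in the knockout libraries and 0.85, 0 and 0 TPM in the wild-type libraries, while the rod opsin gene rho was listed at 0.09 TPM or less in all 6. The phototransduction gene pde6g held 0.26, 75.2 and 8.70 TPM in the knockout libraries and 1.98, 0.22 and 0 TPM in the wild-type libraries, and the serotonin-synthesis gene tph1 held 26.1, 194 and 49.9 TPM in the knockout libraries and 26.1, 25.1 and 20.3 TPM in the wild-type libraries. For aanat2, pde6g and tph1 knockout replicate 3 was highest and knockout replicate 4 next, and knockout replicate 1 lay within or near the wild-type values. Their list of 5 tested genes, which does not hold aanat2 among those tested, had a median of 1.39, and 0.91 without knockout replicate 3. Limma called 0 of the 5, and 3 had an unadjusted p under 0.05, against 13.2% of all tested genes. The non-visual opsin gene opn3 of the same list held 5.92, 5.12 and 7.74 TPM in the knockout libraries and 5.30, 4.65 and 4.26 TPM in the wild-type libraries (0.33, limma adjusted p = 0.397). Without knockout replicate 3, 61 genes were called, 26 higher and 35 lower.

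Along the chromosomes of the assembly ASM223467v1, which served here only for the order of genes, the calls were unevenly spread. The 3 chromosomes with the highest share of called genes held 48 of the 121 calls, 39.7%, and 10.7% of the tested genes. On them 2.47% of tested genes were called, 15 higher and 33 lower, against 0.449% on the rest. These chromosomes were picked for their short-day calls, so that contrast is a description only. In the long-day libraries 1.49% of their tested genes were called, against 0.541% elsewhere. Those libraries entered the short-day calls through the shared estimate of spread, so this is no fully separate check. By chromosome the long-day share was 1.06% to 1.81% on these 3, and it reached 1.55% on a chromosome that was not picked. Of the 121 genes 42 had another called gene within 10 tested genes along the chromosome. The share of all tested genes with a called gene that near was not computed, so this count does not show that calls cluster. Direct neighbours made up 2 pairs. One pair was c20h3orf58 and LOC101157820, both lower in the knockout (-0.51 and -0.85), and the other LOC101171978 and ndufv3, both lower (-0.72 and -0.89). Each of these 4 calls was lost without wild-type replicate 3 (limma adjusted p from 0.0901 to 0.168).

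Among called genes without a symbol, the largest rises after LOC111946846 were those of LOC101160296 and LOC101158905. LOC101160296 held 191, 101 and 84.6 TPM in the knockout libraries and 0.50, 0.68 and 0.89 TPM in the wild-type libraries, a knockout mean 182 times the wild-type mean (6.14, limma adjusted p = 0.0407, and 0.146 without wild-type replicate 3). In the long-day knockout libraries it held 78.1, 80.4 and 0.57 TPM, against 0.78, 0.76 and 0.85 TPM in the long-day wild-type libraries, so that 1 of the 3 knockout libraries stood at the wild-type level. LOC101160296 passed the filter only through knockout libraries. The largest falls were those of LOC101170320, LOC105355818 and LOC111946283. LOC101170320 held 1.54, 2.10 and 4.08 TPM in the knockout libraries and 40.0, 36.8 and 50.6 TPM in the wild-type libraries (-3.66, limma adjusted p = 0.0445, and 0.165 without wild-type replicate 3). Under long days it held 40.7, 2.77 and 3.23 TPM in the knockout libraries and 31.9, 44.5 and 37.4 TPM in the wild-type libraries, again with 1 knockout library at the wild-type level. LOC105355818 differed by -2.61 (0.38, 3.75 and 4.02 TPM in the knockout libraries and 14.4, 18.9 and 23.4 TPM in the wild-type libraries) and LOC111946283 by -2.47 (0, 0.96 and 1.62 TPM in the knockout libraries and 6.33, 8.68 and 11.2 TPM in the wild-type libraries). Both had a limma adjusted p of 0.161 without wild-type replicate 3. LOC101158905 was likewise listed at 0 in 1 long-day knockout library, with 25.5 and 23.4 TPM in the others and 0 in each long-day wild-type library. With each library left out in turn, LOC101160296, LOC101158905 and LOC101170320 lost their calls every time, and LOC105355818 and LOC111946283 kept theirs only without knockout replicate 4.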

How the data were processed

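RNA with poly-A tails was sequenced as paired-end, strand-specific libraries from 12 medaka brain samples, per the labels' protocols. The authors deposited TPM per gene and library. STAR 2.7.9a and RSEM 1.3.1 are named in the submitters' processing notes, without their roles. The genome build and annotation were not given in the sources used here. Coordinates are therefore left out. All 26663 genes matched the gene table of the assembly ASM223467v1 by gene ID, which gave symbols, biotypes and gene order. No per-sample column was left unused. Genes that share reads with near-identical copies or overlapping genes have uncertain TPM.

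Values entered limma 3.58.1 (R 4.3.3) as log2(TPM + 1), in 1 fit of 4 group means over all 12 libraries with a mean-variance trend. A pseudocount of 1 makes differences of genes with few TPM smaller. Genes with at least 1 TPM in at least 3 libraries were tested. Contrasts were knockout minus wild type under short days, the same under long days, and the difference between both contrasts. Calls had a two-sided Benjamini-Hochberg adjusted p under 0.05. The fit was tested on simulated data. The labels name no batch.

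Named genes were, among called genes with a symbol, the 15 that rose most and the 15 that fell most. Called members of the lists and the 3 largest rises and falls without a symbol were added. So were up to 10 genes with a symbol called under both day lengths, neighbouring called pairs, and a set named whatever its result. That set held reproductive, thyroid, clock, opsin and interferon genes, together with arf4, sowahc, c20h8orf59, f13a1 and fech. Of that set tshr, cry2 and bhlhe40 were not tested. The libraries, the 32 gene lists and the rules were chosen with earlier results of these data known. Gene lists are described by counts and medians without a test. Alternatives were a pseudocount of 0.1, no filter, a filter of 5 TPM, array weights, leaving out the 20 genes of highest abundance, scaling by median ratios, no variance trend, the short-day groups alone, a replicate block, and leaving out each short-day library.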

Additional observations from a re-analysis of the deposited data

Results flagged for a closer look

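The gene LOC110015663 was flagged because its genotype difference differed between day lengths in the interaction test. Under short days it held 0.35, 0.78 and 0.39 TPM in the knockout libraries and 0.16, 0.49 and 0.52 TPM in the wild-type libraries. Under long days it held 11.8, 22.2 and 10.9 TPM in the knockout libraries and 0.29, 0.71 and 0.34 TPM in the wild-type libraries, so only the long-day knockout libraries stood above 1 TPM. The gene thus passed the filter only through the group whose excess the interaction measures, and its call is a description only. The short-day difference minus the long-day difference was -3.29 on the log2(TPM + 1) scale (-3.292 in full, SE 0.37, limma adjusted p = 0.0330). Over the alternatives the adjusted p of this limma test ran from 0.0144 to 0.229. It passed the threshold without wild-type replicate 3 (limma adjusted p = 0.0440) and missed it without wild-type replicate 1 or 2 (limma adjusted p = 0.0714 and 0.168), with a pseudocount of 0.1 (limma adjusted p = 0.128), with a filter of 5 TPM (limma adjusted p = 0.125) and with the replicate block (limma adjusted p = 0.229).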

How the results depend on the processing

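All 121 calls rest on 3 libraries a side and a spread shared with the long-day groups, and TPM gives no depth. In a fit of the short-day groups alone 74 genes were called, 32 higher and 42 lower in the knockout, 46 of them among the 121. With a replicate block made from title numbers 6 genes were called, 5 higher and 1 lower, 5 of them among the 121. The labels do not say that equal numbers share a source, and under short days only replicates 1 and 3 occur in both genotypes. Correlations of their deviations from the group means were 0.0817 and 0.0881. These were the highest among the short-day pairs of a knockout and a wild-type library, where the others ran from -0.14 to 0.0483. Under long days the pairs of equal number had -0.0478 and -0.00492. These values do not settle whether equal numbers pair the samples, and the main fit held no block. The replicate block leaves 2 residual degrees of freedom. Libraries whose number occurs in only 1 genotype carry no genotype difference in it. Leaving out each library gave 27 to 95 calls, 17 to 51 higher and 10 to 46 lower. The other alternatives gave 92 to 124 calls, but not all were the same genes. Of the 121, 80 stayed called without a trend, 88 without a filter and 117 with the 20 most abundant genes removed. Of 41 called genes named by rule, 20 lost their calls without a trend and 17 without a filter. In the fit of the short-day groups alone 23 of the 41 lost their calls, and with the replicate block 36. Of the 59 genes named by rule, 0 changed direction while called. Genes not called could change direction, as gnrh3 did without wild-type replicate 3 (0.07 with all libraries and -0.25 without it). For the genes called in the main analysis, whose groups do not overlap, leaving out a library could not change the direction.

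The interaction was called for 1 gene in the main analysis, for 0 with a pseudocount of 0.1, a filter of 5 TPM or the replicate block, for 6 without a filter, 5 without a trend and 9 with array weights, and for 0 to 6 with a library left out. Genes called under both day lengths numbered 26, or 40 with array weights, 3 with the replicate block and 13 to 33 with a library left out.

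Of 30 list medians with at least 5 tested genes, some moved by more than the spread between libraries. With median-ratio scaling the medians were -0.00203 for haem synthesis, 0.0098 for ion channels, 0.0674 for oxidative phosphorylation, 0.0954 for the proteasome, -0.0127 for small GTPases, -0.00411 for sphingolipid genes, 0.0556 for synapse genes, -0.149 for the thyroid axis and 0.0818 for the unfolded protein list. With the replicate block they were -0.127 for glycolysis, -0.0809 for haem, -0.332 for microglia and -0.335 for the thyroid axis. With a filter of 5 TPM they were -0.102 for DNA repair, 0.178 for endothelium and -0.239 for microglia. The thyroid median was -0.254 with a pseudocount of 0.1 and -0.247 with array weights. With a library left out medians ran from -0.157 to -0.0127 for the clock, -0.0224 to 0.108 for cilium genes, -0.0635 to 0.0137 for haem, -0.231 to -0.133 for microglia, -0.149 to 0.0174 for neuropeptides, -0.226 to 0.101 for markers of other tissues, -0.137 to -0.0295 for pituitary factors, -0.135 to 0.0736 for retinoic acid genes, -0.0797 to -0.00865 for sphingolipid genes, -0.0371 to 0.0261 for synapse genes and -0.308 to -0.154 for the thyroid axis. With median-ratio scaling the median of all tested genes rose as well, from -0.0414 to -0.00181. The rise of the list medians with that scaling is therefore not particular to these lists. The cause of the other shifts was not tested.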
